A study of Homo sapiens with 4 samples.

Results

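The alpha globin genes Hba-a1 and Hba-a2 encode the alpha chains of adult mouse haemoglobin. They were taken as all rows of the deposited tables with either name, which gave 4 of the 23698 rows, all on chromosome 11 of the mouse build mm9. RNA had been sequenced from subcutaneous tumours of MDA-MB-231, a line of human breast cancer cells of the triple-negative type, in Balb/c nude mice, which lack a thymus but make their own red cells. Of the 4 groups, 2 carried caspase-3 efficient cells and 2 carried cells that had been cultured with Z-DEVD-FMK, an inhibitor of caspase-3. One group of each kind was untreated, and in the other the mice received docetaxel, a taxane that stabilises microtubules, at 15 mg/kg once tumours measured 12 mm². Each group was 1 library, so no difference below has a replicate check or a p-value. Efficient and inhibited name the grafted cells and not the mouse cells that would carry these transcripts. The rows were chosen by their name and for their FPKM differences among these same libraries, so those differences are described here and not tested.

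Red cells acquire their haemoglobin while they mature from erythroid precursors in the marrow and spleen, and young circulating red cells (reticulocytes) still hold globin mRNA. Alpha chains pair with beta chains, whose genes lie on another chromosome, and the embryonic zeta gene Hba-x and the theta-like genes Hbq1b and Hbq1a flank the adult alpha genes. In a solid tissue, alpha globin RNA is commonly read as blood held in the vessels or spilled into the tissue, although these tables cannot tell fewer red cells from less RNA per red cell. Nor can they tell mouse RNA from reads of the human tumour cells that aligned to these rows, as no recorded step separated them.

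The 4 rows formed 2 copies. In the 32.18 Mb copy (chromosome 11, 32183672 to 32184493) an Hba-a1 row and an Hba-a2 row shared 812 bp. In the 32.20 Mb copy (chromosome 11, 32196489 to 32197310) an Hba-a1 row and an Hba-a2 row likewise shared 812 bp, and the copies were 11995 bp apart. Both names were thus placed at both positions, and each copy is better read by the sum of its rows than by the name of either. The adult genes are near-identical duplicates, so the split of fragments between copies and between names is uncertain.

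Summed over the 4 rows, alpha globin was lowest in the untreated efficient library and highest in the docetaxel efficient library, with both inhibited libraries between them. In efficient tumours the sum was 207 FPKM (fragments per kilobase of transcript, scaled to library depth) untreated and 1766 with docetaxel. In inhibited tumours it was 935 untreated and 427 with docetaxel. Docetaxel thus went with more alpha globin in efficient tumours and with less in inhibited tumours. The sums of the deposited lower and upper bounds were 117 to 324 and 1411 to 2136 FPKM in efficient tumours, and 728 to 1167 and 277 to 620 in inhibited tumours. The top rank depends on the scaling: after quantile normalization, which gives all libraries the same set of values, the untreated inhibited library was highest (summed log2 difference to the untreated efficient library 2.85, against 2.13 for the docetaxel efficient library). The deposited ranges did not overlap, except that the upper end of the untreated efficient library (324) lay above the lower end of the docetaxel inhibited library (277).

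The deposited bounds show how few fragments these levels rest on. In the alpha globin rows, 19 bounds above 0 belonged to a row name with a value in that library. All 19 were whole multiples of a fixed FPKM step, with a largest deviation of 0.000332 of a step. The step, or a simple fraction of it, was taken so that interval widths came nearest those of a count of 1 fragment per step. At the Hba-a1 rows 1 fragment was worth 5.59 FPKM untreated and 4.76 with docetaxel in efficient tumours, and 6.27 and 8.38 in inhibited tumours. Divided by these steps, the 4 sums, in the same order, held 37 fragments (95% exact Poisson interval 26.1 to 51.0), 372 (335 to 412), 149 (126 to 175) and 51 (38.0 to 67.1). The intervals cover counting error only. The docetaxel efficient library alone gave values that were not whole (98.5 on one row), so some fragments were counted there in part. Its Hba-a2 row of the 32.20 Mb copy had bounds of 54 to 101 around 77.5 fragments, wider than counting alone gives.

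**Figure D1:**
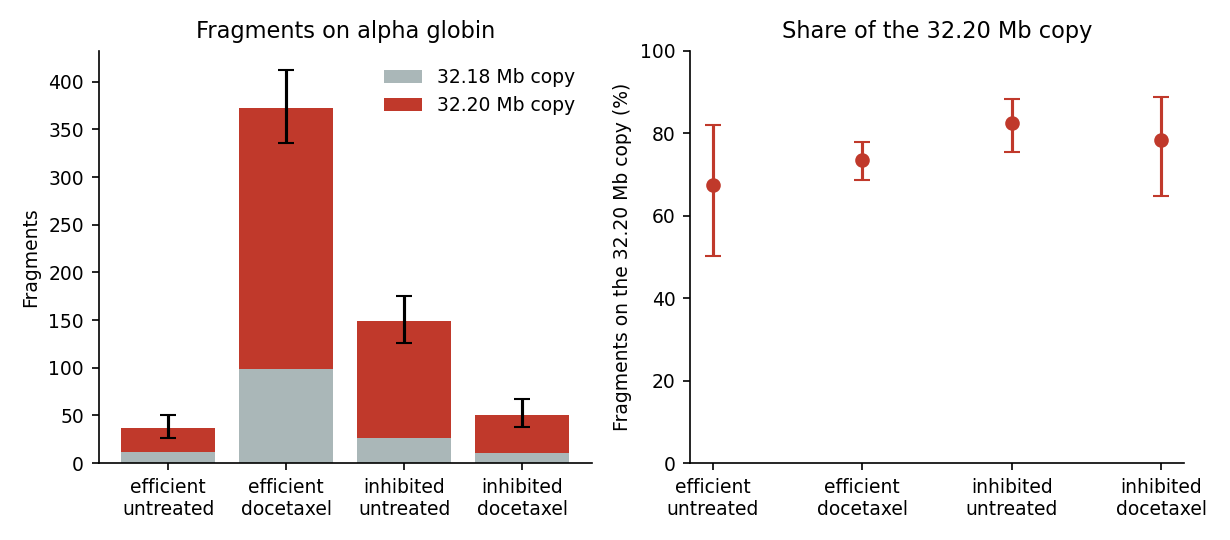
Left, fragments on alpha globin in each library (bars, by copy), with the 95% exact Poisson interval of the total. Right, percentage of those fragments on the 32.20 Mb copy with its 95% Clopper-Pearson interval. The totals run from 37 to 372, while the shares lie between 67.6% and 82.6% with overlapping intervals.

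In the 32.18 Mb copy the level lay in the Hba-a1 row alone. In efficient tumours that row was at 67.1 FPKM (deposited interval 33.5 to 106) untreated and 469 (376 to 562) with docetaxel. In inhibited tumours it was at 163 (100 to 226) untreated and 92.2 (41.9 to 151) with docetaxel. Only the docetaxel efficient library stood clear of the other three, whose intervals overlapped one another. In fragments the row held 12 and 98.5 in efficient and 26 and 11 in inhibited tumours. Its Hba-a2 partner was listed at 0 in all 4 libraries, with upper bounds between 9.40 and 16.6 FPKM.

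In the 32.20 Mb copy the Hba-a1 row was the highest of the members in every library. In efficient tumours it was at 140 FPKM (83.8 to 196) untreated and 933 (781 to 1090) with docetaxel. In inhibited tumours it was at 772 (627 to 916) untreated and 335 (235 to 436) with docetaxel. The docetaxel efficient and untreated inhibited libraries overlapped here, and both stood above the docetaxel inhibited library, which stood above the untreated efficient library. Its fragments numbered 25 and 196 in efficient and 123 and 40 in inhibited tumours. By FPKM this row ranked 16 and 3 in efficient and 2 and 7 in inhibited tumours among all loci above 0 of its library, so alpha globin was among the highest mouse loci listed.

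The Hba-a2 row of the 32.20 Mb copy was at 364 FPKM (254 to 475, 77.5 fragments) in the docetaxel efficient library and listed at 0 in the other three, with upper bounds of 11.1, 12.4 and 16.6 FPKM. The library with the most alpha globin fragments was therefore the one in which fragments were credited to both names. No source used here says how fragments were split between rows that overlap, and the Hba-a2 value is no separate observation.

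**Figure D2:**
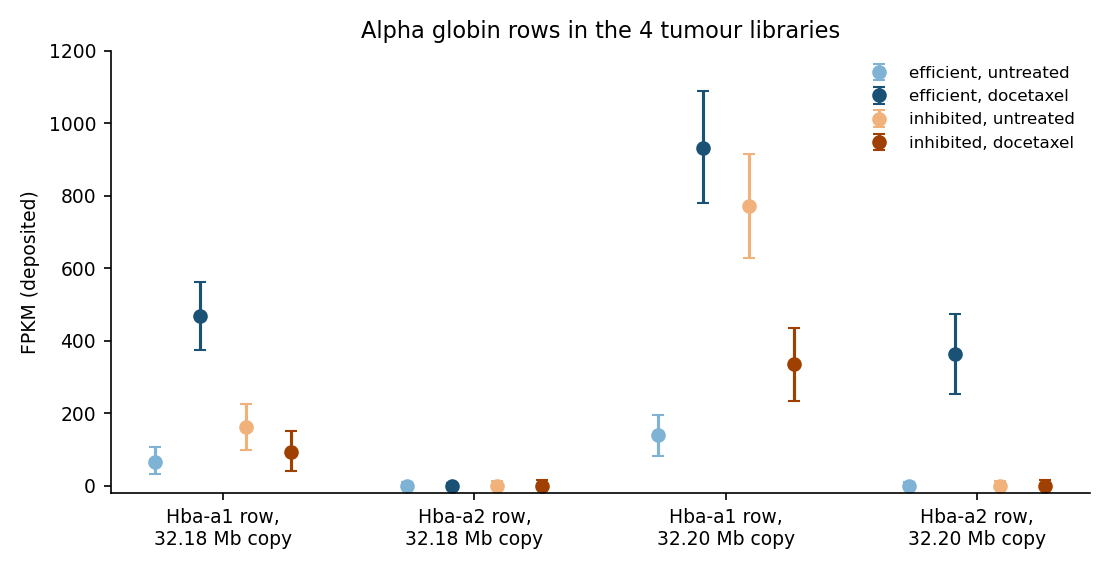
Deposited FPKM of each alpha globin row (points) with its deposited lower and upper bound (bars), by library. The Hba-a1 rows of both copies are highest in the docetaxel efficient library (469 and 933 FPKM), and the Hba-a2 row of the 32.20 Mb copy is above 0 in that library only.

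The 32.20 Mb copy held more of the alpha globin than the 32.18 Mb copy in each library. In efficient tumours its share of the fragments was 67.6% untreated (95% Clopper-Pearson interval 50.2 to 82.0) and 73.5% with docetaxel (68.7 to 77.9). In inhibited tumours it was 82.6% untreated (75.5 to 88.3) and 78.4% with docetaxel (64.7 to 88.7). The interval of each share overlapped the others. The untreated inhibited share was higher by 9.03 percentage points (0.945 to 16.1) than the docetaxel efficient share, and by 15.0 points (0.447 to 31.9) than the untreated efficient share. These are Newcombe 95% intervals of counting error only, not adjusted for the number of pairs. They take fragments as independent, although the split between near-identical copies is uncertain and some fragments were counted in part. No difference in share is read from them.

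In efficient tumours the docetaxel library held 8.54 times the summed alpha globin of the untreated library (95% counting interval 6.08 to 12.3 on the FPKM scale, 1 library each). The summed deposited bounds allowed a wider range of folds, from 4.36 to 18.2. Summed by copy, the docetaxel library was 6.99 times higher in the 32.18 Mb copy and 9.29 times higher in the 32.20 Mb copy, or 6.68 times by the Hba-a1 row of the latter alone. To be called higher or lower, a row needed a difference of 2-fold or more in FPKM + 1, deposited intervals that stayed apart and 5 FPKM in a library. By this rule 3 of the 4 rows were higher, against 8.1% of the 667 loci compared, and 0 were lower, against 0.9%, in a contrast that the choice of members used. One of those 3 was the Hba-a2 row listed at 0 in the untreated library, which leaves 2 with a value in both. The log2 difference of the sum was 3.09, beside a median of 0.34 over all loci compared, and it was 2.13 after quantile normalization.

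In inhibited tumours the order was the opposite. The docetaxel library held 0.457 of the summed alpha globin of the untreated library (0.326 to 0.632), a log2 difference of -1.13, whereas the median of all loci compared was 0.37. By the summed deposited bounds the ratio could lie between 0.237 and 0.852. By the rule 1 of the 4 rows was lower, the Hba-a1 row of the 32.20 Mb copy, against 1.75% of 630 loci, and 0 rows were higher, against 3.81%. The Hba-a1 row of the 32.18 Mb copy differed the same way (163 and 92.2 FPKM), with overlapping intervals. The log2 difference of the sum was -2.19 after quantile normalization and -1.77 relative to Col1a2, a type I collagen gene of the matrix-producing stroma.

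Among untreated tumours the inhibited library held 4.52 times the summed alpha globin of the efficient library (3.14 to 6.67). By the summed deposited bounds the fold could lie between 2.25 and 9.94. The fold differed by copy, but the 32.18 Mb copy held only 26 fragments in the inhibited and 12 in the efficient library. As the split between copies is uncertain, no difference between copies is read. The Hba-a1 row was 5.52 times higher in the 32.20 Mb copy and 2.43 times higher in the 32.18 Mb copy, where the intervals overlapped (100 to 226 against 33.5 to 106 FPKM). So 1 of the 4 rows was higher by the rule, against 2.51% of 597 loci, and 0 were lower, against 3.35%. The log2 difference of the sum was 2.17, and 2.85 after quantile normalization.

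Under docetaxel the inhibited library held 0.242 of the summed alpha globin of the efficient library (0.177 to 0.325), a log2 difference of -2.04. By the summed deposited bounds the ratio could lie between 0.129 and 0.439. Of the 4 rows 3 were lower by the rule, against 9.27% of 701 loci, and 0 were higher, against 3.99%. One of those 3 was the Hba-a2 row listed at 0 in the inhibited library. The Hba-a1 row of the 32.18 Mb copy was 5.09 times lower and that of the 32.20 Mb copy 2.78 times lower, or 3.87 times with both rows of that copy summed. The single row of the 32.20 Mb copy no longer met the rule after quantile normalization (log2 difference -0.92) or at a 3-fold threshold. Each library enters 2 of these 4 comparisons, so they are not independent of one another.

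The docetaxel difference in inhibited tumours minus that in efficient tumours was -4.22 on the log2 scale (95% counting interval -4.89 to -3.55). In FPKM without the added 1, the docetaxel ratio was 18.7 times larger in efficient than in inhibited tumours (11.7 to 29.7). With 1 library in each group, the variation between animals in how much blood a tumour holds was not measured, and it cannot be told apart from either factor.

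**Figure D3:**
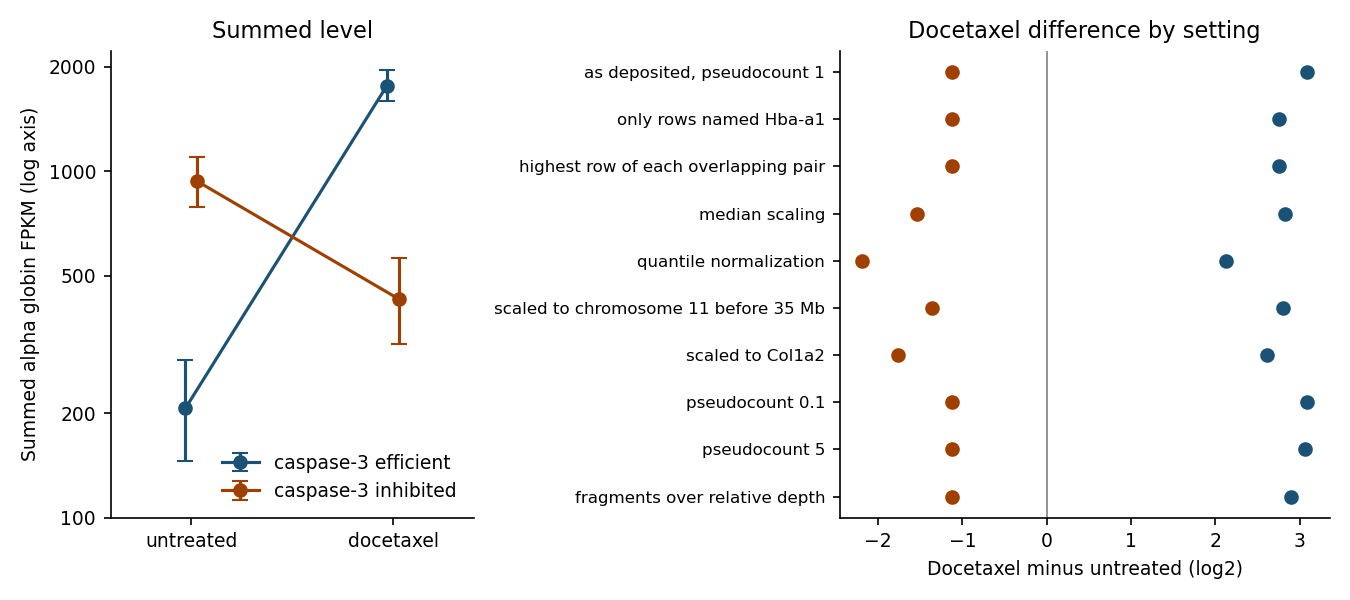
Left, summed alpha globin FPKM (log axis) by treatment, with lines joining the libraries of the same caspase-3 state and bars for the 95% counting interval. Right, docetaxel minus untreated difference of the sum (log2) under each setting tried. The lines cross on the left, and on the right every efficient value lies between 2.13 and 3.09 and every inhibited value between -2.19 and -1.12.

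The FPKM scale bears on the docetaxel efficient value. Loci whose value and bounds were all whole fragments gave depths relative to the untreated efficient library. These were 1.32 for docetaxel in efficient tumours (median over 94 loci), and 0.891 untreated (80 loci) and 0.667 with docetaxel (73 loci) in inhibited tumours. The FPKM steps at Hba-a1 gave ratios of 1.17, 0.891 and 0.667. FPKM therefore credited each fragment on these short rows with more in the docetaxel efficient library than depth alone would. Dividing fragments by relative depth gave a log2 docetaxel difference of 2.89 in efficient tumours and -1.12 in inhibited tumours.

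Relative to Col1a2 and to nearby loci of chromosome 11, the order of the 4 libraries was that of the deposited sums, which it was not after quantile normalization. Alpha globin stood at 0.561 times Col1a2 untreated and 3.43 times with docetaxel in efficient tumours, and at 2.52 and 0.738 times in inhibited tumours. Col1a2 itself was at 369 and 515 FPKM in efficient and 371 and 579 in inhibited tumours. Of 20 fibroblast and matrix loci 3 were above 0 in a library, and only Col1a2 reached 5 FPKM. Col1a1, the other type I collagen gene, was at 0.334 FPKM with docetaxel in efficient tumours and otherwise at 0. Col1a2 is therefore 1 row used as a scale and not a measure of stroma. Against the median of 122 other loci on chromosome 11 before 35 Mb that were above 0 in all 4 libraries, alpha globin was 23.8 and 167 times as high in efficient and 125 and 48.4 times as high in inhibited tumours. That median moved little, between 7.51 and 10.6 FPKM.

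Genes next to the alpha globin rows were low and met the rule in no comparison. Of 9 further loci within 100 kb, 4 were listed at 0 in all libraries. These were the embryonic gene Hba-x, Hbq1b between the copies, Hbq1a and the interleukin-9 receptor gene Il9r, and each had an upper bound of 0. None of the 9 was higher or lower by the rule in any of the 4 comparisons, in which 4 or 5 of them could be compared. Over all loci compared, the rule called between 0.9% and 9.27% per comparison and direction. A count of 0 among so few loci is close to that share and is not read as a trait of the neighbours.

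Nprl3, a regulator of mTORC1 signalling whose introns hold the main enhancers of the alpha globin genes, was at 1.88 FPKM (0 to 5.65) untreated and 5.04 (0.720 to 9.36) with docetaxel in efficient tumours, and at 7.41 (2.12 to 13.8) and 1.41 (0 to 7.07) in inhibited tumours. Its values were highest in the libraries where alpha globin was high, but all 4 intervals overlapped. Snrnp25, a component of the minor spliceosome, was at 28.5, 28.1, 7.11 and 9.49 FPKM in the same order, higher in both efficient libraries with overlapping intervals. Sh3pxd2b, an adaptor of podosomes, was at 11.8, 10.6, 8.35 and 12.0, Rhbdf1, an inactive rhomboid protein, at 8.73, 10.5, 3.27 and 6.55, and the DNA glycosylase gene Mpg at 2.58, 4.97, 4.35 and 5.81. Each neighbour was below both Hba-a1 rows in every library on the same FPKM scale per length, but in the untreated efficient library the interval of Snrnp25 (9.58 to 45.5) overlapped that of the Hba-a1 row of the 32.18 Mb copy (33.5 to 106).

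**Figure D4:**
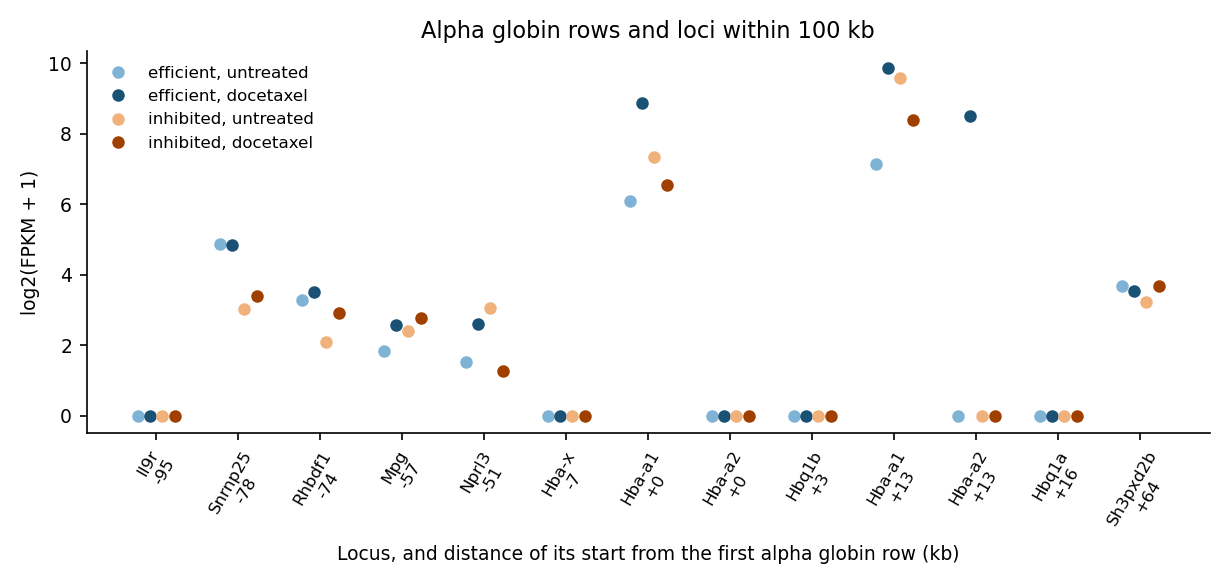
Level of the alpha globin rows and of the 9 further loci within 100 kb, as log2(FPKM + 1) by library, ordered along the chromosome with the distance of each start from the first alpha globin row in kb. The Hba-a1 rows spread widely between libraries, while the neighbours are low or at 0.

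Whether these transcripts came with red cells could not be read from other erythroid genes. Of 53 erythroid loci in the tables other than the members, 6 were above 0 in a library and none reached 5 FPKM. Their summed level was 4.56 FPKM untreated and 3.56 with docetaxel in efficient tumours, and 6.14 and 0.914 in inhibited tumours, which does not follow the order of alpha globin. Slc4a1, the anion exchanger of the red cell membrane, was at 0.916, 0.692, 0.514 and 0 FPKM in that order. Mkrn1, most of the sum in the untreated efficient library, was at 3.64, 1.11, 1.64 and 0. Hemgn was at 0, 0.722, 1.06 and 0, and Epb4.2 at 0, 0.462, 0.684 and 0.914. Fam132b was above 0 with docetaxel in efficient tumours only (0.580), and Urod in untreated inhibited tumours only (2.24).

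All 5 beta globin rows on chromosome 7 were listed at 0 with an upper bound of 0 in each library, although alpha and beta chains are made together in red cells. The same held for Alas2, the erythroid enzyme of haem synthesis, and the erythroid transcription factor genes Klf1 and Gata1. A listed 0 gives no level in these tables: Actb, a cytoskeletal actin of all cells, was also at 0 in all 4 libraries. On chromosome 11 before 35 Mb, where the alpha globin rows lie, 138 of 227 loci (60.8%) had a value above 0 in 3 or more libraries. Within 1 Mb of the beta globin rows it was 1 of 100 loci, and on the rest of chromosome 11 it was 160 of 1522 (10.5%). The name of blood content for these rows therefore rests on alpha globin alone.

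Other cells of blood and vessels were hardly listed. Of 17 platelet and megakaryocyte loci 2 were above 0, with a summed level between 3.23 and 4.29 FPKM per library, and Pf4, Ppbp and Itga2b were at 0. Of 15 neutrophil loci 3 were above 0 (0.675 to 5.91 FPKM summed), with S100a8 and S100a9 at 0, and of 15 lymphocyte loci 2 were (0 to 1.57). Of 22 endothelial loci 5 were above 0, at 8.25, 9.93, 6.13 and 8.27 FPKM summed in the order used for Slc4a1, with Cdh5 and Kdr at 0. Hardly any of these loci reached the level the rule needs: 0 platelet and 0 lymphocyte loci, and at most 1 neutrophil and 1 endothelial locus, could be compared in any comparison, and 0 of those were called.

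Iron and haem handling genes were no better represented, with 3 of 19 loci above 0 and a summed level of 1.19, 0.983, 0.798 and 0.533 FPKM. The haem oxygenase gene Hmox1, the haptoglobin gene Hp and the transferrin receptor gene Tfrc were at 0. Of 22 hypoxia response loci 3 were above 0 (0 to 8.19 FPKM summed), and Stc2, a secreted glycoprotein gene on chromosome 11 before 35 Mb, made up most of it at 7.71 FPKM in the docetaxel efficient library.

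Some markers of 2 other cell types were highest in the docetaxel efficient library, as alpha globin was. The adipocyte list (4 of 13 loci above 0) summed to 429 FPKM there and to between 11.6 and 13.3 in the other libraries, nearly all of it Retn, the resistin gene. The monocyte and macrophage list (5 of 22 loci above 0) summed to 224 FPKM there and to between 68.7 and 96.8 in the others, most of it Mmp12, the macrophage elastase gene. Lep (1.98 FPKM) of the adipocyte list and Cd163 (0.715 FPKM) of the macrophage list were above 0 in the docetaxel efficient library only. The remaining markers above 0 in these lists had other orders. The adipocyte gene Cidea was at 2.07 and 9.76 FPKM in efficient and 11.6 and 12.4 in inhibited tumours, and the macrophage gene Mpeg1 at 3.37 and 2.91 and at 2.16 and 1.45. Ly6c1 of the monocyte and macrophage list was at 0 and 9.22 FPKM in efficient and 10.9 and 0 in inhibited tumours. It was thus above 0 only where alpha globin was high, but its deposited lower bounds were 0. The part of Retn and Mmp12 in the alpha globin difference was not tested. Between the untreated libraries, where alpha globin was 4.52 times higher with inhibition, the macrophage sum was 68.7 FPKM in the inhibited and 91.5 in the efficient library and the adipocyte sum 11.6 and 13.3. The macrophage sums were mostly Mmp12, and the adipocyte sums mostly Cidea in the inhibited and Retn in the efficient library. Such sums do not measure a cell type.

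The loci whose pattern over the 4 libraries lay closest to summed alpha globin were found by the root mean square distance of centred log2(FPKM + 1) values, among 596 loci above 0 in all 4 libraries and at 5 FPKM or more in at least 1. They were AF251705 (distance 0.21), the p53 target Trp53inp1 (0.45), the growth hormone receptor gene Ghr (0.52), Ccs, the copper chaperone of superoxide dismutase (0.57), and the choline kinase gene Chka (0.58), against a median distance of 1.19. AF251705 was at 2.13 FPKM untreated and 34.3 with docetaxel in efficient tumours, and at 19.1 and 7.98 in inhibited tumours. Trp53inp1 was at 0.383, 5.50, 2.15 and 1.73 FPKM in that order, so it rests on few fragments, and its deposited lower bound was above 0 in the docetaxel efficient library only. Trp53inp1 also reached 5 FPKM in that library only. Each of the 5 was highest in the docetaxel efficient library, which follows from picking loci close to a pattern that peaks there. In the untreated efficient library the deposited lower bound of each was 0. None of them lies on chromosome 11 before 35 Mb. With 4 libraries many loci share an order, and only 1 of the 5 remained among the closest when loci had to reach 5 FPKM in each library.

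**Figure D5:**
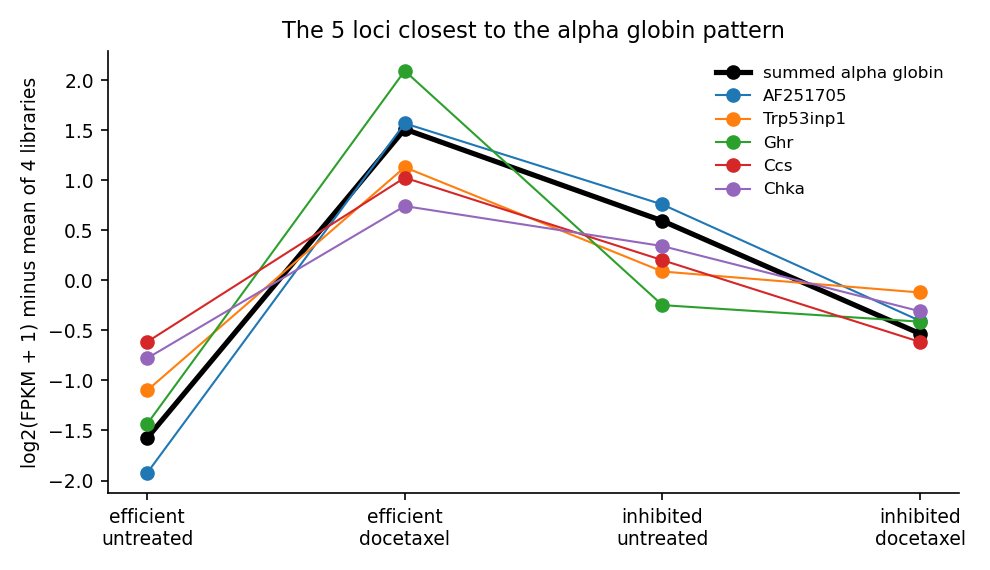
Summed alpha globin (black) and the 5 loci closest to it, as log2(FPKM + 1) minus the mean of the 4 libraries. All 6 lines peak in the docetaxel efficient library, which for the 5 loci follows from how they were picked. Ghr departs most from alpha globin in the untreated inhibited library.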

How the data were processed

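The authors aligned to the mouse build mm9 with TopHat and estimated levels with Cufflinks, per the submitters' processing notes, which as used here name no versions. Ribosomal RNA had been depleted or mRNA purified before library preparation, per the labels' protocols, and the sample descriptions name the depletion. Each deposited table gives FPKM per locus, its lower and upper bounds and a status, per the file headers. The weighting of fragments with several alignments is not stated there, and no recorded step separated human reads that aligned to mouse sequence.

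Starts were converted to positions counted from 1. Members, gene lists and settings were chosen with earlier results of these data known. Differences used log2(FPKM + 1), and folds are plain FPKM ratios. A step was sought for each row name and library of which all bounds were whole multiples within 0.005, and fragments are FPKM over that step. Fold intervals are exact conditional intervals of 2 fragment counts at 95%, and that of the difference of differences is a normal approximation. The call rule and the step search were tested on simulated data. Named were the 4 rows, loci within 100 kb, list members above 0, described by examples, and the 5 loci of closest pattern, without loci under 500 bp, clone names, predicted genes or short RNAs. Markers named at 0 were chosen after their values were seen. Alternatives were other pseudocounts, minima, thresholds, scalings and ways of summing rows. No mouse sequence was used here. The work was done in Python 3.11.15 (scipy 1.17.1, numpy 2.4.6, matplotlib 3.10.9, pandas 2.3.3).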

Additional observations from a re-analysis of the deposited data

Results flagged for a closer look

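The docetaxel difference of alpha globin had opposite signs in efficient and inhibited tumours. Inhibited minus efficient, the log2 difference was -4.22 for the sum of the 4 rows, -3.60 for the Hba-a1 row of the 32.18 Mb copy and -3.93 for the Hba-a1 row of the 32.20 Mb copy. Each sign rests on 1 library against 1, so the difference was not tested.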

How the results depend on the processing

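The sign of each of the 4 summed differences and of the difference of docetaxel differences held under all 9 alternatives, of which dividing fragments by relative depth was chosen after seeing the data. Taking only rows named Hba-a1 and taking the highest row of each overlapping pair gave the same values, so they are 1 check. For docetaxel in inhibited tumours and inhibition untreated they returned the main values (-1.13 and 2.17), because Hba-a2 was at 0 in those libraries. They check nothing there, and dividing fragments by relative depth hardly differed either (-1.12 and 2.15). The other pseudocounts are small beside these sums and could hardly turn a sign. The same holds for median, chromosome 11 and Col1a2 scaling, whose factors lay between 0.805 and 1.26. The difference of differences ran from -4.38 to -3.88 on the log2 scale. Quantile normalization moved the 4 summed log2 differences beyond their counting intervals, to 2.13 for docetaxel in efficient tumours, -2.19 for docetaxel in inhibited tumours, 2.85 for inhibition untreated and -1.47 for inhibition under docetaxel, and scaling to Col1a2 moved docetaxel in inhibited tumours to -1.77. Quantile normalization sets each value by its rank in its library. By FPKM the Hba-a1 row of the 32.20 Mb copy ranked 3 with docetaxel in efficient tumours (933 FPKM) and 2 untreated in inhibited tumours (772 FPKM). How much of each move the ranks account for was not tested. Rows called for inhibition untreated numbered 2 instead of 1 without the interval criterion or after median scaling, and for docetaxel in inhibited tumours 0 instead of 1 at a 3-fold threshold, where fewer differences qualify by construction. The closest patterns shared 1 of 5 loci when 5 FPKM was required in all libraries, which removes low loci by construction, and 3 of 5 with a pseudocount of 5. No paired analysis was possible because each group was 1 library. The untreated efficient sum rests on the fewest fragments (37), while the docetaxel inhibited library was the shallowest (0.667 of the depth of the untreated efficient library).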
